A study of Homo sapiens with 8 samples.

Results

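The genes described here are 10 members of the aryl hydrocarbon receptor (AhR) pathway and of glucuronidation: AHR, ARNT, AHRR, TIPARP, CYP1A1, CYP1A2, CYP1B1, ALDH3A1, UGT1A6 and UGT2B7. They were chosen by symbol from the 38637 genes of the deposited RNA-seq table, with earlier results of these data known. All libraries came from SW1990, an established human pancreatic adenocarcinoma cell line. The 8 libraries formed 4 groups of 2: Vector carried an empty vector, EBF2-OE overexpressed the transcription factor EBF2, Vehicle received the vehicle alone, and GSK-LSD1 received the compound of that name, an inhibitor of the histone demethylase KDM1A/LSD1. The titles of the GSK-LSD1 libraries give a dose of 2000 µM. The unit of that dose could not be checked, lower doses are given for other assays of the study, and the time of treatment was not given in the sources used here. Nothing in the labels says that libraries came from separate cultures, so the p-values measure the spread between these libraries only. The study profiled both conditions to follow transcription when EBF2 or H3K4 monomethylation is raised, and each condition has its own control.

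AhR is a cytosolic transcription factor that binds planar aromatic compounds and tryptophan metabolites, moves to the nucleus, pairs with ARNT and binds DNA at response elements with the core GCGTG. Its classical targets are the monooxygenases CYP1A1, CYP1A2 and CYP1B1, the aldehyde dehydrogenase ALDH3A1 and the glucuronosyltransferase UGT1A6, and also AHRR and TIPARP, which restrain the receptor. Glucuronosyltransferases such as UGT1A6 and UGT2B7 join glucuronic acid to hydroxylated products, which makes them soluble for export.

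Promoter windows from RefSeq (GRCh38.p14, 250 bases before to 50 bases after a start site) were found for 8 of the 10 members, and for 6 of them a window lay at the start given in the deposited table. CYP1B1 and ALDH3A1 had no window in the table used. The core GCGTG, searched on both strands (GCGTG or CACGC), occurred in 5 of those 6 windows, those of AHR, AHRR, TIPARP, CYP1A1 and UGT1A6. It occurred in 36.5% of all 35116 windows, which include further start sites of a gene, so a match is common. Among the members' windows away from the deposited start, that of AHRR held 2 matches. Those of ARNT, UGT2B7, TIPARP and UGT1A6 held none. The longer form TNGCGTG, which contains the core, occurred in 5.51% of all windows and in 2 of the 6 members' windows, those of AHRR and UGT1A6. The windows of CYP1A1 and UGT1A6 are printed because these genes were higher after GSK-LSD1, and those of TIPARP and AHRR because these feedback genes differed between libraries. Capitals mark the core, and each sequence runs 5′ to 3′ along its gene.
CYP1A1, chr15:74725479-74725778, reverse strand: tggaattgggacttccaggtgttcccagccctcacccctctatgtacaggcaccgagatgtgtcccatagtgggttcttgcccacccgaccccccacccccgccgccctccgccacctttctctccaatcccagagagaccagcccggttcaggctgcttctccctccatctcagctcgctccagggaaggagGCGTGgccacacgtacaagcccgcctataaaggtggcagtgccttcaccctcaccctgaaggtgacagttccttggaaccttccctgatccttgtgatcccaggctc
TIPARP, chr3:156674340-156674639, forward strand: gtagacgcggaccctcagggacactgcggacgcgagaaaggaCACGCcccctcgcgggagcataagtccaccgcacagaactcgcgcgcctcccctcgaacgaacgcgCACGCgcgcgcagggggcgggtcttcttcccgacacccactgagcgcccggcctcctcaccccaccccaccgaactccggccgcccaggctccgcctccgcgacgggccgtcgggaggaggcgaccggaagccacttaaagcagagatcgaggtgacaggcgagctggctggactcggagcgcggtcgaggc
AHRR, chr5:321464-321763, forward strand: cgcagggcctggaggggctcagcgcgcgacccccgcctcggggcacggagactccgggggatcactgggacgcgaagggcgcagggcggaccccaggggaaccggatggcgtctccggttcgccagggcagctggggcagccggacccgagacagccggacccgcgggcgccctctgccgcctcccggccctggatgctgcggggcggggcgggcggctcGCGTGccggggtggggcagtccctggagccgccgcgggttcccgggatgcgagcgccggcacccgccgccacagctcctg
UGT1A6, chr2:233691452-233691751, forward strand: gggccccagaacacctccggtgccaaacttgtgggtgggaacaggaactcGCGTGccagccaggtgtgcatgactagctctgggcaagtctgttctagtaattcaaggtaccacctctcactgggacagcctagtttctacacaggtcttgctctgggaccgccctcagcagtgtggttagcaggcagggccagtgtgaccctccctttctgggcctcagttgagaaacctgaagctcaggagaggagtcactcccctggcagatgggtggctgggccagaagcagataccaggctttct
Counted from the start site, the core begins at -57 in CYP1A1, at -208 and -142 in TIPARP, at -30 in AHRR and at -200 in UGT1A6. A match in these windows describes the letters only.

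The libraries held 20453362 to 27054876 counts on genes. Levels are given as CPM, counts scaled to a common library size by TMM factors over all 8 libraries, or, between genes, as the deposited TPM, which also divides by gene length. EBF2 was at 1.32 and 1.20 CPM in Vector, 289 and 4025 CPM in EBF2-OE, and at most 1.74 CPM in the other 4 libraries, so the EBF2-OE libraries differed widely from each other in the targeted gene. The keratins KRT8, KRT18 and KRT7 and the mucin MUC1 were abundant in every library, whereas CDH1, EPCAM and KRT19, further epithelial markers, had only 7 to 57, 4 to 20 and 0 to 21 counts. The fibroblast collagen COL1A1 had 1419 to 2299 counts, and the leukocyte marker PTPRC had 1 to 9. The epithelial markers were not level between groups. KRT7 was lower after GSK-LSD1 (log2 fold change -0.69, adjusted p = 2.19e-05, edgeR), KRT18 was at -0.45 there, and KRT18 was lower in Vector than in Vehicle (-0.99, adjusted p = 0.006085, edgeR), a call lost without Vehicle 1. Their part in the members' differences was not tested. Replicate counts differed by more than sampling noise in every group, and the chi-square per degree of freedom was 25.6 for the Vector pair, 32.9 for the EBF2-OE pair, 6.23 for Vehicle and 5.34 for GSK-LSD1. The residual biological coefficient of variation was 19% for EBF2-OE with Vector, 13.1% for Vector with Vehicle and 5.87% for GSK-LSD1 with Vehicle.

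The feedback repressor AHRR had the highest mean level of the members, 121.1 TPM over the 8 libraries, above TIPARP at 80.45 TPM and CYP1B1 at 67.76 TPM. AHRR exceeded TIPARP in 6 of 8 libraries, TIPARP exceeded CYP1B1 in 7 of 8, and CYP1B1 exceeded ARNT in 7 of 8. ARNT (36.96 TPM), ALDH3A1 (32.4 TPM) and AHR (28.32 TPM) followed. The order of these genes differed between the experiments. ARNT and AHR exceeded ALDH3A1 in all 4 Vector and EBF2-OE libraries, where ALDH3A1 was at 16.9, 25.4, 18.7 and 25.2 TPM. In all 4 Vehicle and GSK-LSD1 libraries ALDH3A1, at 43.8, 47.0, 38.8 and 43.4 TPM, exceeded both. CYP1A1 (9.039 TPM) was below AHR and above UGT1A6 (0.9641 TPM) in 8 of 8 libraries. Among the CYP1 monooxygenases, the level of CYP1B1 was therefore several times that of CYP1A1.

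CYP1A2 and UGT2B7, enzymes best known from liver, were at or near 0. CYP1A2 had 1 count in Vector 2, 3 counts in Vector 3 and 0 in the other 6 libraries, and UGT2B7 had 1 count in Vehicle 2 and 0 elsewhere. A count of 0 allows up to 3 counts, which corresponds to between 0.0921 and 0.124 TPM for CYP1A2 and between 0.128 and 0.173 TPM for UGT2B7 in these libraries. This limit covers counting error only. Neither gene passed the low-count filter (filterByExpr at 10 counts) in any comparison, and no fold change is given for them. Of the 11 other UGT2 and UGT3 genes examined, 9 had 0 counts in all 8 libraries, and only UGT2B15 and UGT3A1 had any, at no more than 2 counts.

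**Figure D1:**
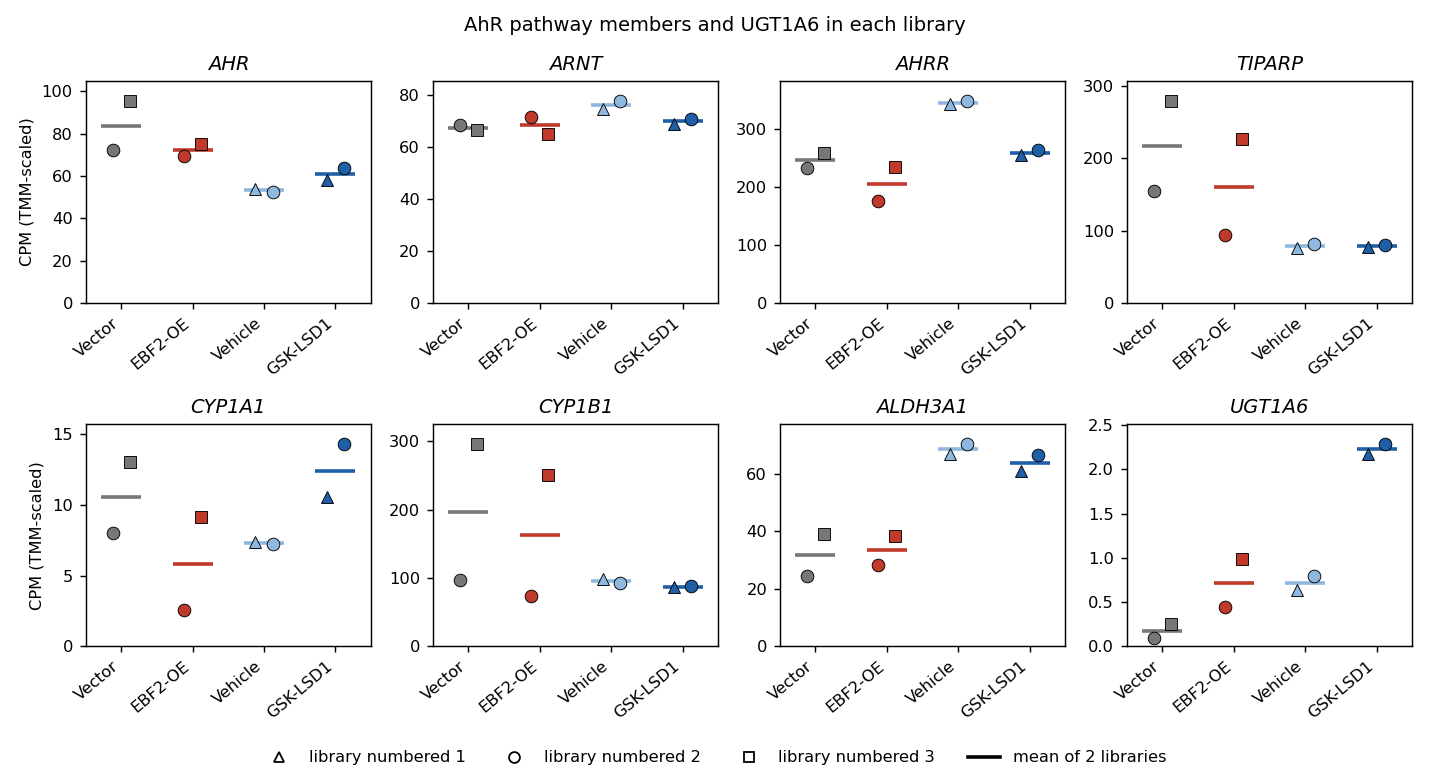
Level of the 8 detected members in each library, in CPM (TMM-scaled, linear axes from 0), with points for libraries, shapes for the library number in the label, and bars for the mean of 2 libraries. Vehicle and GSK-LSD1 libraries lie close together within their group apart from CYP1A1 in GSK-LSD1 (10.5 and 14.3). In Vector and EBF2-OE the libraries numbered 3 lie above those numbered 2 for every member shown except ARNT.

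In EBF2-OE cells, none of the members passed the test against Vector. AHR was at 72.1 and 95.3 CPM in Vector and at 69.5 and 75.3 CPM in EBF2-OE. Its partner ARNT was at 68.6 and 66.5 CPM in Vector and at 71.6 and 65.2 CPM in EBF2-OE. Both genes overlapped between the groups, with log2 fold changes of -0.20 (standard error, SE, 0.162) for AHR and 0.02 (SE 0.119) for ARNT.

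The repressor AHRR was at 233 and 259 CPM in Vector and at 176 and 235 CPM in EBF2-OE. TIPARP, an ADP-ribosyltransferase that modifies AhR, was at 155 and 279 CPM in Vector and at 93.6 and 227 CPM in EBF2-OE. The spread between the libraries of one group was larger than the difference between the groups for TIPARP. The log2 fold change was -0.25 (SE 0.17) for AHRR and -0.42 (SE 0.45) for TIPARP.

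CYP1A1, which oxidises polycyclic aromatic compounds, was at 8.03 and 13.1 CPM in Vector and at 2.53 and 9.11 CPM in EBF2-OE. CYP1B1, which also hydroxylates oestrogens, was at 96.4 and 296 CPM in Vector and at 73.6 and 251 CPM in EBF2-OE. ALDH3A1, which oxidises aromatic aldehydes, was at 24.6 and 38.9 CPM in Vector and at 28.3 and 38.3 CPM in EBF2-OE. The groups overlapped for all 3 enzymes, with log2 fold changes of -0.84 (SE 0.573) for CYP1A1, -0.26 (SE 0.677) for CYP1B1 and 0.08 (SE 0.258) for ALDH3A1. Compared within a library number, CYP1A1 in EBF2-OE was 0.315 times Vector among the libraries numbered 2 and 0.698 times among those numbered 3. The same ratios were 0.605 and 0.815 for TIPARP, 0.756 and 0.907 for AHRR, 0.763 and 0.85 for CYP1B1, and 0.964 and 0.79 for AHR. They lay on both sides of 1 for ARNT (1.04 and 0.98) and ALDH3A1 (1.15 and 0.985), and above 1 for UGT1A6 (4.73 and 3.83).

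Genes had to pass a 1.5-fold limit and an adjusted p of 0.05 to be called, in the quasi-likelihood test of edgeR after Benjamini-Hochberg adjustment across every gene tested. By this rule 0 of the 7 members tested were higher and 0 were lower in EBF2-OE, and all 7 had an adjusted p of 0.9998. The overexpressed gene EBF2, fitted at a log2 fold change of 10.75 (SE 1.553), was not called either (adjusted p = 0.9998, edgeR). A lack of calls in this comparison, for members or for lists, therefore does not show a lack of change. Over all 15560 genes tested, 0% were called higher and 0% lower, with 208 genes at an unadjusted p under 0.05. No member had an unadjusted p under 0.05, the lowest being 0.1885 for AHRR. DESeq2 called 6 genes higher and 1 lower, none of them a member. An SE of 0.573 on the log2 scale means that changes of the size fitted for CYP1A1 could not be told from no change with these libraries.

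UGT1A6 was too low for the test in this comparison. It had 2 and 6 counts in Vector (0.0945 and 0.257 CPM) and 9 and 22 counts in EBF2-OE (0.447 and 0.983 CPM). Both EBF2-OE libraries lay above both Vector libraries, and the log2 ratio of the mean CPM was 2.02. It was called in none of the alternatives run. Its adjusted p was, for example, 1 with DESeq2, 0.9996 with edgeR and no low-count filter, and 0.9408 with edgeR over all 8 libraries.

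After GSK-LSD1, CYP1A1 and UGT1A6 were higher than in Vehicle, AHRR was lower by less than the fold limit, and the receptor itself did not pass the test. CYP1A1 was at 7.37 and 7.23 CPM in Vehicle and at 10.5 and 14.3 CPM in GSK-LSD1. The raw counts were 184 and 200 against 243 and 325. Both treated libraries lay above both controls. In such bulk libraries, more RNA per cell and more cells with the RNA cannot be told apart. The log2 fold change was 0.76 (SE 0.149, Benjamini-Hochberg adjusted p = 0.005868, edgeR). Without the second GSK-LSD1 library the log2 fold change was 0.53 and the adjusted p was 0.07204, so the call rested on that library.

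UGT1A6 was at 0.641 and 0.795 CPM in Vehicle and at 2.17 and 2.28 CPM in GSK-LSD1, from 16 and 22 against 50 and 52 counts. All treated libraries exceeded all controls, and its log2 fold change of 1.62 (SE 0.278, adjusted p = 0.002919, edgeR) was the highest fitted among the members tested here. It remained called when any 1 of the 4 libraries was left out, with log2 fold changes of 1.48 to 1.78.

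AHRR was at 343 and 349 CPM in Vehicle and at 255 and 264 CPM in GSK-LSD1, with no overlap. Its log2 fold change was -0.42 (SE 0.0478, adjusted p = 2.53e-04, edgeR), so it differed by more than the replicate spread but by less than 1.5-fold and was not called. AHR was at 54.1 and 52.5 CPM in Vehicle and at 58.0 and 63.7 CPM in GSK-LSD1, with a log2 fold change of 0.19 (SE 0.0668, adjusted p = 0.0748, edgeR). ARNT was at 74.8 and 77.7 CPM against 69.0 and 70.9 CPM, and its log2 fold change was -0.13 (adjusted p = 0.1541, edgeR). Thus the groups did not overlap for AHR or ARNT, yet neither passed the test. Among the members tested here only TIPARP overlapped between the groups. The share of all genes without overlap was not computed, so a lack of overlap does not single out any member.

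TIPARP, CYP1B1 and ALDH3A1 showed small differences after GSK-LSD1. TIPARP was at 76.2 and 82.1 CPM in Vehicle and at 77.0 and 80.6 CPM in GSK-LSD1, a log2 fold change of -0.01 (SE 0.0614). CYP1B1 was at 98.5 and 92.9 CPM in Vehicle and at 86.9 and 87.6 CPM in GSK-LSD1, a log2 fold change of -0.14 (SE 0.0554). ALDH3A1 was at 67.0 and 70.2 CPM in Vehicle and at 61.1 and 66.4 CPM in GSK-LSD1, a log2 fold change of -0.11 (SE 0.0651). For CYP1B1 and ALDH3A1, though not for TIPARP, both treated libraries lay below both controls. These 3 classical AhR targets, which are more abundant than CYP1A1, thus lay within 0.14 of no change on the log2 scale. AHRR, also a more abundant target, was lower by less than the fold limit, as given above.

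In total, 2 of the 8 members tested were higher and 0 were lower after GSK-LSD1. In this comparison 2.53% of the 16059 genes tested were higher and 2.04% lower. The members were chosen with earlier results of these data known, so these shares are a background and not a test of the members. Among the members fitted below 0, AHRR and CYP1B1 had unadjusted p-values of 3.57e-06 and 0.0321. DESeq2 called the same 2 members higher, CYP1A1 with an adjusted p of 0.005794 and UGT1A6 with 0.0173. When 1 edgeR model was fitted over all 8 libraries, neither was called (adjusted p = 0.5511 for CYP1A1 and 0.1559 for UGT1A6). The spread of the Vector and EBF2-OE libraries entered that fit, and its part in the lost calls was not tested.

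**Figure D2:**
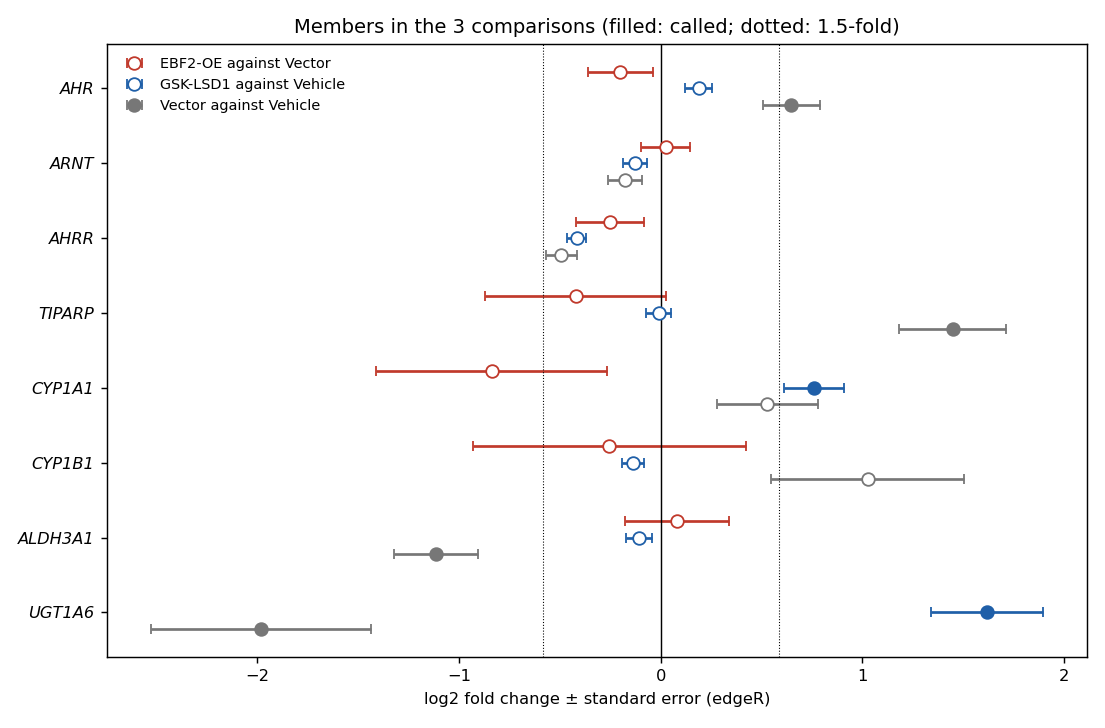
Log2 fold change of each tested member with its standard error (edgeR) in the 3 comparisons, with filled points for called genes and dotted lines at 1.5-fold in each direction. After GSK-LSD1, CYP1A1 (0.76) and UGT1A6 (1.62) are called, no member is called in EBF2-OE, and the widest bar is that of CYP1B1 in EBF2-OE (SE 0.677).

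The count of UGT1A6 was not separate from that of its locus. UGT1A6 (chromosome 2, 233691702 to 233773300, forward strand, hg38) has a first exon of its own and shares its later exons with the 8 other UGT1A genes. Of the 64 counts of those 8 genes over the 8 libraries, 55 equalled the commonest count of their library. That commonest count reached 39 and 37 after GSK-LSD1, from 11 and 13 in its controls, and was 9 and 20 with EBF2-OE and 2 and 4 with the empty vector. Beyond it, UGT1A6 had 11 and 15 further counts after GSK-LSD1 and 5 and 9 in Vehicle, and 0 and 2 in each of the other groups. Most of its reads therefore could not be assigned to UGT1A6 rather than to another gene of the locus. All 8 other UGT1A genes were called higher after GSK-LSD1 with log2 fold changes from 1.71 for UGT1A7 to 1.85 for UGT1A1, and since they hold the same reads these are not independent of UGT1A6. Without GSK-LSD1 1, UGT1A7 and UGT1A8 missed the threshold (adjusted p = 0.05272 and 0.05335, edgeR), and in 1 fit over all 8 libraries 0 of the 8 were called. UGT1A7 was the only other gene with a repeated excess, of 6 and 4 counts after GSK-LSD1 and 4 and 2 in its controls.

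**Figure D3:**
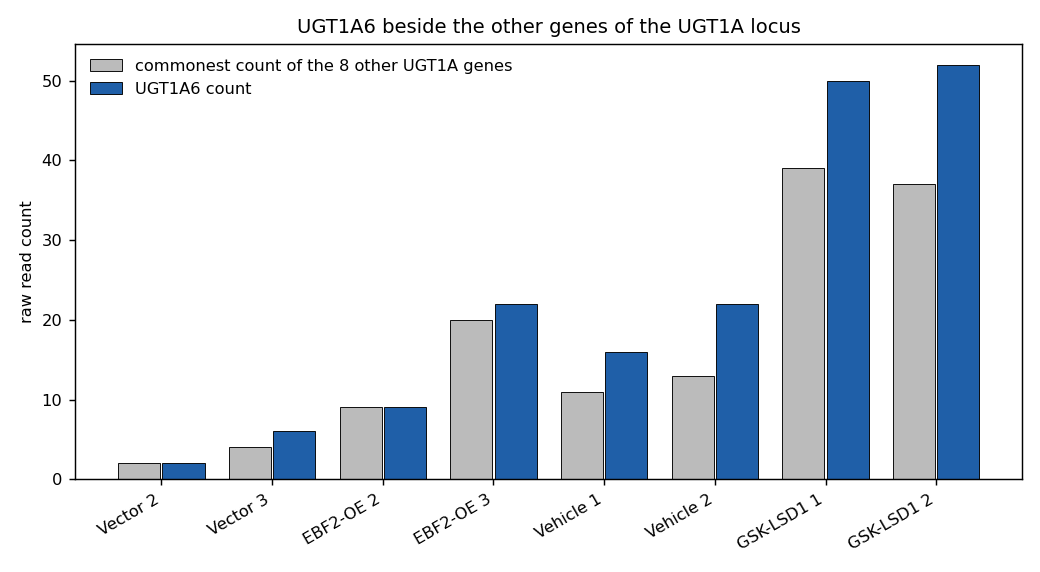
Raw read count of UGT1A6 (blue bars) beside the commonest count of the 8 other UGT1A genes (grey bars) in each of the 8 libraries. Both are highest in GSK-LSD1 (50 and 52 against 39 and 37) and lowest in Vector, and the blue bar exceeds the grey bar by at most 15 counts.

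Whether a member responded differently in the 2 experiments was tested as the EBF2-OE effect minus the GSK-LSD1 effect over all 8 libraries. Of the 8 members tested, 0 were called, and 0% of 16558 genes were called higher and 0% lower, with 1268 genes at an unadjusted p under 0.05. CYP1A1 came closest, with a difference of -1.61 on the log2 scale (SE 0.67, unadjusted p = 0.0409, adjusted p = 0.6235, edgeR). DESeq2 called 38 genes higher and 56 lower in this contrast, none of them a member. The CYP1A1 call in GSK-LSD1 and its absence in EBF2-OE are therefore not shown to differ.

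The controls differed from each other in several members. AHR was at 72.1 and 95.3 CPM in Vector against 54.1 and 52.5 CPM in Vehicle, and its log2 fold change was 0.65 (SE 0.142, adjusted p = 0.0273, edgeR). TIPARP was at 155 and 279 CPM in Vector against 76.2 and 82.1 CPM in Vehicle, a log2 fold change of 1.45 (SE 0.266, adjusted p = 0.0184, edgeR). The receptor and its feedback ADP-ribosyltransferase were thus higher in Vector in both libraries. ALDH3A1 was lower in Vector, at 24.6 and 38.9 CPM against 67.0 and 70.2 CPM, with a log2 fold change of -1.12 (SE 0.21, adjusted p = 0.0194, edgeR). UGT1A6 was also lower in Vector, at 0.0945 and 0.257 CPM against 0.641 and 0.795 CPM, with a log2 fold change of -1.98 (SE 0.543, adjusted p = 0.0474, edgeR).

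AHRR was lower in Vector by a log2 fold change of -0.49 (SE 0.076, adjusted p = 0.0133, edgeR), under the fold limit. CYP1B1 had a log2 fold change of 1.03 (SE 0.479) and CYP1A1 one of 0.53 (SE 0.251), and neither passed the test. ARNT had a log2 fold change of -0.18 (SE 0.083) and was not called. In this comparison 2 of 8 members were higher and 2 lower, beside 5.79% of 16019 genes higher and 10.2% lower. Construct, vehicle and experiment cannot be told apart here. Without Vehicle 1 or without Vehicle 2, 0 members were called in either direction, and over all genes the calls then fell to 2 higher and 10 lower, or 34 higher and 201 lower. Without Vector 2, CYP1A1 and CYP1B1 also passed, with log2 fold changes of 0.83 and 1.62, and UGT1A6 at -1.48 no longer did. Without Vector 3, AHR at 0.45 fell under the fold limit.

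Several members followed the number of the library in its label. Vector and EBF2-OE libraries carry the numbers 2 and 3, whose meaning is not given, and this comparison was chosen after the values had been seen. CYP1B1 in the library numbered 3 was 3.07 times that numbered 2 in Vector and 3.42 times in EBF2-OE. TIPARP was 1.8 times higher in Vector and 2.43 times in EBF2-OE, and CYP1A1 1.63 and 3.6 times. The ratios also exceeded 1 in both groups for AHR (1.32 and 1.08), AHRR (1.11 and 1.33) and ALDH3A1 (1.58 and 1.35). They did so for UGT1A6 too (2.72 and 2.2), from few counts. ARNT went slightly the other way, with ratios of 0.97 and 0.91.

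Between numbers, with the group as a term in edgeR, CYP1B1 differed by 1.69 on the log2 scale (SE 0.14, adjusted p = 4.12e-04) and TIPARP by 1.06 (SE 0.154, adjusted p = 0.008859). CYP1A1 differed by 1.21 (SE 0.278, adjusted p = 0.0722, edgeR) and ALDH3A1 by 0.54 (SE 0.144, adjusted p = 0.111, edgeR). Thus 2 of the 7 members tested were higher and 0 lower in the libraries numbered 3, beside 1.1% of 15560 genes higher and 0.668% lower. With DESeq2 size factors in edgeR, or with no low-count filter, CYP1A1 passed as well (adjusted p = 0.03089 and 0.02973). For CYP1B1 and TIPARP the difference between numbers was larger than that between EBF2-OE and Vector.

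EGR1 and FOS, immediate early genes chosen after their values had been seen, were also higher in the libraries numbered 3. EGR1 was at 7.98 CPM in Vector 2 and 272 CPM in Vector 3, and at 3.67 and 180 CPM in the EBF2-OE libraries numbered 2 and 3. FOS was 4.28 and 8.47 times higher in Vector 3 and EBF2-OE 3 than in their partners numbered 2, and EBF2 itself was higher in EBF2-OE 3 than in EBF2-OE 2. Their part in the values of CYP1B1, TIPARP and CYP1A1 was not tested. Between the libraries numbered 2 and 1 of Vehicle and GSK-LSD1, 0 of 8 members were called in either direction, beside 0% of 16059 genes higher and 0.0187% lower. DESeq2 also called 0 members, and no member had an unadjusted p under 0.05.

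**Figure D4:**
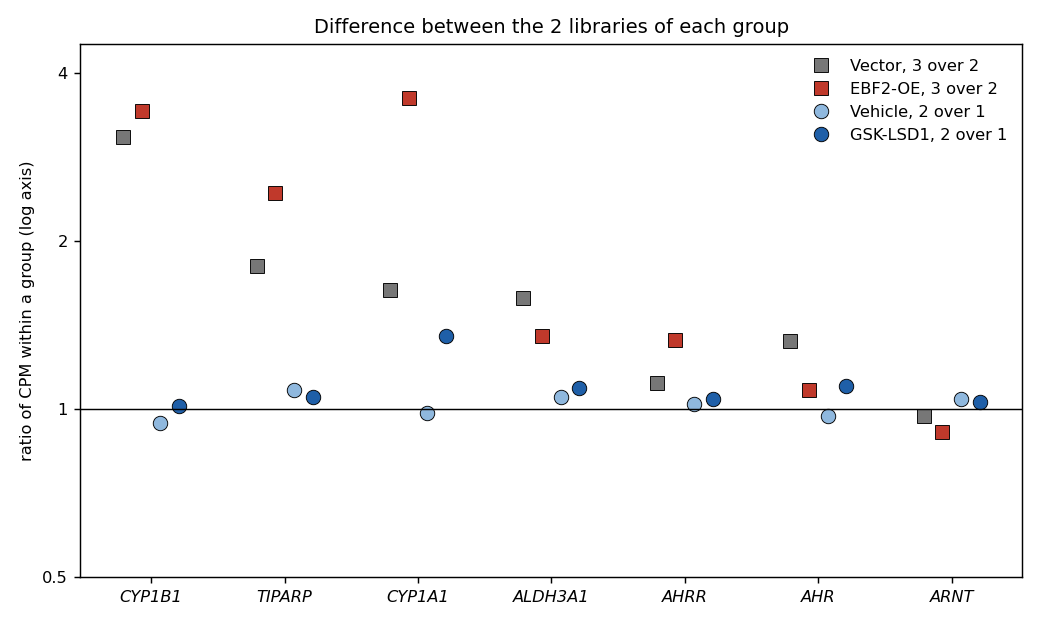
Ratio of CPM between the 2 libraries of each group (log axis with base 2), with squares for number 3 over number 2 in Vector and EBF2-OE and circles for number 2 over number 1 in Vehicle and GSK-LSD1. All genes shown except ARNT stand above 1 in both squares, with CYP1B1 (3.07 and 3.42), TIPARP (1.8 and 2.43) and CYP1A1 (1.63 and 3.6) the highest. The circles stay near 1 apart from CYP1A1 in GSK-LSD1 (1.35).

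AHR (chromosome 7, 17298652 to 17346147, forward strand, hg38), ARNT (chromosome 1, 150809713 to 150876737, reverse strand), CYP1A1 (chromosome 15, 74719542 to 74725528, reverse strand) and ALDH3A1 (chromosome 17, 19737984 to 19748390, reverse strand) overlapped no other gene of the table. The other detected members share sequence with an overlapping gene. For partners on the opposite strand, the library kit and counting as described give no strand setting, so their reads cannot be told apart. For partners on the same strand, such as PDCD6-AHRR and the UGT1A genes, a strand setting could not separate the reads. AHRR (chromosome 5, 321714 to 438285, forward strand, hg38) lies wholly within the readthrough gene PDCD6-AHRR, whose counts were 101% to 107% of those of AHRR. After GSK-LSD1 the log2 fold change of PDCD6-AHRR was -0.45 (adjusted p = 1.30e-04, edgeR), near that of AHRR. RMDN2 overlaps the end of CYP1B1 (chromosome 2, 38067509 to 38076151, reverse strand, hg38) on the other strand, and its counts were 21.9% to 28% of those of CYP1B1. RMDN2 also differed between the libraries numbered 3 and 2, by 1.69 on the log2 scale (adjusted p = 5.13e-04, edgeR), as CYP1B1 did. TIPARP-AS1, antisense to TIPARP (chromosome 3, 156674590 to 156706770, forward strand, hg38), had only 22 to 88 counts beside 1776 to 6522 for TIPARP, and the same-strand LOC107986148 had 6 to 85. TIPARP-AS1 was lower after GSK-LSD1, with a log2 fold change of -0.76 (adjusted p = 0.0257, edgeR), whereas TIPARP was at -0.01.

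The other genes of the pathway were described by lists of symbols. These lists too were chosen with earlier results of these data known, so their counts beside the shares of all genes are a description only. The AhR complex and its modulators (11 genes, all tested, among them the chaperones HSP90AA1 and HSP90AB1 and the co-chaperone PTGES3) had 0 genes called in EBF2-OE and 0 after GSK-LSD1. Their median log2 fold change after GSK-LSD1 and that of all genes tested were both -0.01, and 2.53% of all genes were higher and 2.04% lower there. Between Vector and Vehicle, 3 were higher and 0 lower, namely HSP90AA1 (0.92), ARNT2 (2.61) and EP300 (0.78), where 5.79% of all genes tested were higher and 10.2% lower.

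Of 15 further AhR target genes, 12 were tested after GSK-LSD1, and 2 were higher and 1 lower, with a median of 0.11 against -0.01 for all genes, of which 2.53% were higher and 2.04% lower. The drug efflux pump ABCG2 was higher (0.89), the secreted glycoprotein STC2 was higher (0.61), and the monooxygenase CYP2S1 was lower (-0.75). ABCG2 lost its call without GSK-LSD1 1 (0.78, adjusted p = 0.09826, edgeR), and STC2 fell under the fold limit without GSK-LSD1 2 (0.57). In 1 edgeR fit over all 8 libraries, 0 of these genes were called (adjusted p = 0.1573 for ABCG2, 0.1787 for STC2 and 0.05536 for CYP2S1). NQO1, a quinone reductase, had a log2 fold change of 0.27 (adjusted p = 0.003695, edgeR), under the fold limit. In EBF2-OE, 0 of 13 tested were called. Between Vector and Vehicle, 4 of 13 were higher, namely STC2 (1.86), HES1 (4.19), FLVCR1 (0.79) and LRIG1 (0.95), and 1 was lower, CYP2S1 (-0.67), beside 5.79% and 10.2% of all genes. Between the libraries numbered 3 and 2, HES1 (3.60), PTGS2 (2.30) and NFE2L2 (0.63) were higher, beside 1.1% of all genes, and DESeq2 called HES1 and PTGS2 but not NFE2L2.

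Of the 6 tested genes of tryptophan metabolism, 1 was higher and 0 were lower after GSK-LSD1, beside 2.53% and 2.04% of all genes tested. This gene, KYNU, had a log2 fold change of 0.74 (adjusted p = 2.97e-05, edgeR), at 49.9 and 52.5 CPM in Vehicle against 87.5 and 84.6 CPM. Whether KYNU adds or removes AhR ligands here was not tested, and ligands were not measured. The median of this list was 0.44, against -0.01 for all genes tested. KYNU was not called in 1 edgeR fit over all 8 libraries (adjusted p = 0.08442). In EBF2-OE, 0 of the 6 were called. IDO1 (-1.11), KMO (-0.64) and KYNU (-0.84) were lower in Vector than in Vehicle. Thus 3 of the 6 were lower and 0 higher there, beside 10.2% and 5.79% of all genes tested.

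The 9 genes that supply UDP-glucuronic acid, remove glucuronides by hydrolysis or export them were all tested. In EBF2-OE 0 were called, and after GSK-LSD1 0, with a median of 0.20 after GSK-LSD1 against -0.01 for all genes. Over all genes tested, 0% were called in EBF2-OE, and 2.53% were higher and 2.04% lower after GSK-LSD1. In Vector against Vehicle 5.79% of all genes were higher and 10.2% lower. The exporter ABCC3, at 0.37 after GSK-LSD1 (adjusted p = 0.00478, edgeR), stayed under the fold limit. ABCC3 was lower (-1.01) and the nucleotide sugar transporter family member SLC35B1 higher (0.62) in Vector than in Vehicle. Of 14 regulators of UGT genes, 10 were tested, and 0 were called in EBF2-OE or after GSK-LSD1, whereas VDR, the vitamin D receptor, was higher in Vector than in Vehicle (0.73). In the PARP family beside TIPARP, 0 of 10 tested genes were called in either treatment, and PARP10 was lower in Vector than in Vehicle (-0.97). PARP2 was high in a single library, at 120 CPM in GSK-LSD1 1 against 40.5 CPM in GSK-LSD1 2 and 40.4 and 41.0 CPM in Vehicle. Of the genes from these lists named for Vector against Vehicle, only STC2 kept its call whichever single library was left out.

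Among the members themselves, AHR and TIPARP had a Pearson correlation of 0.9 over the 8 libraries on log2(CPM + 1), TIPARP and CYP1B1 one of 0.9, and AHRR and ALDH3A1 one of 0.79. Other pairs were negative, among them ARNT with AHR (-0.8), TIPARP (-0.77) and CYP1B1 (-0.66), and ALDH3A1 with AHR (-0.67) and TIPARP (-0.58). CYP1A1 had at most 0.44 with any other member. These values describe 8 libraries in 4 groups and carry the differences between the experiments. The nearest genes were ranked over 14319 genes, leaving out PDCD6-AHRR, which overlaps AHRR, and genes of the member's own family. Those most like AHR were TMX4 (0.998), SMCR8 (0.994) and USP38 (0.993), and those most like AHRR were HBP1 (0.989), TTC7A (0.986) and PNPLA7 (0.983). TIPARP was followed most closely by ZEB2 and PPP1R15A (0.990 each) and LANCL2 (0.988), and CYP1B1 by DUSP14 (0.997), SLC6A9 (0.995) and THUMPD3-AS1 (0.992). CYP1A1 had its closest genes at lower values, WDPCP (0.936), ARAP2 (0.927) and MAFG (0.920). ARNT was closest to ABI2 (0.974), CFAP92 (0.966) and COQ8A (0.965), and ALDH3A1 to PRKCSH (0.994), NUCB1 (0.993) and TOGARAM2 (0.990).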

How the data were processed

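Poly(A)-selected RNA of the 8 SW1990 libraries was sequenced as paired-end reads. The authors aligned reads to hg38 with HISAT2 and counted them per gene with HTSeq, versions not given in the sources used here, and deposited raw counts, gene lengths, coordinates and TPM per gene. The deposited TPM was checked to equal count over length, rescaled per library. Columns of gene descriptions were not used. Libraries were grouped by their labels. The members and the gene lists were chosen with earlier results of these data known. The test on counts was that of edgeR 4.0.16 under R 4.3.3 (TMM, filterByExpr with a minimum count of 10, quasi-likelihood test, two-sided, Benjamini-Hochberg), on the 4 libraries of each comparison, and a gene was called above 1.5-fold with an adjusted p under 0.05. Standard errors came from the F statistic. The fit was tested on simulated counts. Alternatives were DESeq2 1.42.0, its size factors in edgeR, limma 3.58.1 on log2(CPM + 1), other low-count filters and 1 fit over 8 libraries. Further ones were a replicate block, other thresholds, leaving out each library, and removal of the UGT1A genes other than UGT1A6. That removal left the count of UGT1A6 as it was and did not enter the counts of members called. Named were all members, list genes called in a comparison or among the most abundant of their list, and the 3 genes most correlated with each member. The ranking by correlation left out PDCD6-AHRR and genes of the member's own family. Figures used matplotlib 3.10.9.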

Additional observations from a re-analysis of the deposited data

How the results depend on the processing

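The members called higher after GSK-LSD1 numbered 2 in every alternative except 0 in 1 fit over all 8 libraries, and 1 to 2 when a library was left out. With no fold limit 1 member, AHRR, was lower. Between Vector and Vehicle the members called lower were 1 with DESeq2 (UGT1A6 had no adjusted p there), 1 with at least 10 counts in every library and 1 with limma, and leaving out a library gave 0 to 4 higher and 0 to 2 lower. The 0 members called in EBF2-OE against Vector and in the difference of effects stayed at 0 in all alternatives run. Signs turned in 20 values, all on leaving out 1 library, for which the log2 fold change ranged as follows. In EBF2-OE against Vector it was -0.37 to 0.0043 for AHR, -0.044 to 0.084 for ARNT, -1.21 to 0.079 for TIPARP, -1.41 to 0.75 for CYP1B1 and -0.20 to 0.44 for ALDH3A1. After GSK-LSD1 it was -0.060 to 0.045 for TIPARP. In the difference of effects it was -0.063 to 0.34 for AHRR, -1.20 to 0.071 for TIPARP, -1.28 to 0.89 for CYP1B1, -0.084 to 0.54 for ALDH3A1 and -0.32 to 1.24 for UGT1A6. No library left out gave any of these a call, and the lone library of a group was assumed to vary like the others. With the replicate number as a block, 0 members were called in EBF2-OE and 2 higher and 0 lower after GSK-LSD1, as without it, although the log2 fold change of CYP1A1 in EBF2-OE went to -1.02 (SE 0.277, adjusted p = 0.7835, edgeR). Differences between numbers correlated at 0.35 over 15560 genes for Vector with EBF2-OE and at -0.014 over 16059 genes for Vehicle with GSK-LSD1, and the labels do not say what the numbers share. Over all genes, the block gave 4 higher and 1 lower in EBF2-OE, against 0 and 0, and no low-count filter gave 64 and 10. After GSK-LSD1 all genes numbered 406 higher and 328 lower, against 282 and 185 with DESeq2 and 85 and 15 in 1 fit over all 8 libraries. At this depth CYP1A2 (0 to 3 counts) and UGT2B7 (0 to 1) lay below the low-count filter, and UGT1A6 rested on 2 to 52 counts.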

Other observations

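Neighbouring conjugation and oxidation enzymes were examined as further lists, also chosen with earlier results of these data known. Of 10 sulfotransferases, which add sulfate to phenols or hydroxysteroids, 3 were tested after GSK-LSD1. Of these, 1 was higher and 0 were lower, beside 2.53% and 2.04% of all genes tested. SULT2B1, a hydroxysteroid sulfotransferase, was higher, at 1.12 and 1.34 CPM in Vehicle and at 2.08 and 2.81 CPM in GSK-LSD1, a log2 fold change of 0.98 (SE 0.259, adjusted p = 0.0241, edgeR). Both treated libraries exceeded both controls, but its call was lost with DESeq2 (adjusted p = 0.16) and without Vehicle 1, GSK-LSD1 1 or GSK-LSD1 2, and its log2 fold change was 0.75 to 1.19 when a library was left out. Of 9 other aldehyde dehydrogenases, 7 were tested, and 1 was higher and 0 were lower after GSK-LSD1, beside the same shares of all genes. ALDH1A2, which makes retinoic acid, was at 1.04 and 0.94 CPM in Vehicle against 2.43 and 2.28 CPM in GSK-LSD1. Its log2 fold change was 1.25 (SE 0.25, adjusted p = 0.006669, edgeR). The call of ALDH1A2 was lost with DESeq2 (adjusted p = 0.06304) and without GSK-LSD1 1 (1.20, adjusted p = 0.06946, edgeR). In 1 edgeR fit over all 8 libraries neither SULT2B1 nor ALDH1A2 was called (adjusted p = 0.4252 and 0.1459).

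In EBF2-OE, 0 of 2 tested sulfotransferases and 0 of 7 tested aldehyde dehydrogenases were called by edgeR, and DESeq2 called 0 of either list. Between Vector and Vehicle, SULT1A1 (-0.82) and SULT2B1 (-2.17) and the aldehyde dehydrogenases ALDH2 (-0.71) and ALDH3B1 (-1.37) were lower in Vector, beside 10.2% of all genes tested. Without Vehicle 1 none of these 4 kept its call, with adjusted p from 0.05803 for ALDH3B1 to 0.1515 for SULT2B1 (edgeR), and without Vehicle 2 only ALDH3B1 kept it.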
